A study of Saccharomyces cerevisiae with 34 samples.

Results

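The 53 genes described here encode nucleolar factors that turn the ribosomal RNA precursor of budding yeast into ribosomal subunits. They were picked by name, as standard genes of rRNA processing and subunit assembly, out of 6679 genes in each of the deposited tables, and all 53 were found in both and passed the filter on low values in every comparison. By role they comprise 4 box C/D small nucleolar ribonucleoprotein (snoRNP) genes, 6 UtpA genes, 4 UtpB genes, 8 other small-subunit factors, RRP5, which serves both subunits, 9 DEAD-box helicases, 16 large-subunit assembly factors, 3 GTPases and 2 rRNA methyltransferases.

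The study measured mRNA and ribosome occupancy side by side in SK1 yeast cultures in rich medium under endoplasmic reticulum (ER) stress, with and without Hac1, the transcription factor of the unfolded protein response. In one experiment hac1 deletion cells and wild-type (WT) cells received 5 mM DTT (dithiothreitol, a reducing agent), 2 µg/mL Tm (tunicamycin, an inhibitor of N-glycosylation) or no treatment, with 1 mRNA-seq library and 1 ribosome-footprint library for each of the 6 cultures and no duration given in the labels. In the other, cells with TIR (a plant F-box protein that lets auxin trigger degradation of a tagged protein) or without TIR were given 500 µM auxin plus 4 µM IP6, or vehicle, and 15 min later 5 mM DTT or nothing. Its groups were TIR cells with auxin and DTT (Hac1 depleted), TIR cells with vehicle and DTT, no-TIR cells with auxin and DTT (Hac1 retained), no-TIR cells with vehicle and DTT, and the unstressed libraries, TIR and no-TIR cells given auxin and no DTT. Each had 1 library of each kind at 2 h and 1 at 1 h, except no-TIR cells with auxin alone, which had 1 h only, for 22 libraries. The series text calls the cells depleted for Hac1, but the labels describe no degradation tag and no strain construction, and how complete the depletion was is known here only from target genes. The labels do not say whether 1 h and 2 h came from separate cultures, so p-values measure only the spread between these samples, which may be technical.

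In yeast, a long precursor rRNA is transcribed in the nucleolus and bound co-transcriptionally by the small-subunit processome, a large particle that includes the UtpA and UtpB complexes and the U3 box C/D snoRNP. Box C/D snoRNPs guide 2′-O-methylation of rRNA, DEAD-box helicases remodel the particles, and GTPases and ribosomal-like proteins mark steps of large-subunit maturation. Ribosome biogenesis genes are known as a co-regulated group that follows growth rate and is repressed in many stresses, through regulators downstream of the TOR and protein kinase A pathways.

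Values were taken as RPKM (reads scaled by gene length and by a total for each library), and differences are given on the log2(RPKM + 1) scale. Translation efficiency (TE) was taken as footprints over mRNA of the paired libraries on that log2 scale. Estimated from the steps between low values, 6.37 M to 36.0 M reads fell in genes per library, and the members' estimated reads ranged from 334 (DBP6) upwards in mRNA and from 175 (NOP8) upwards in footprints, with medians of 2382 and 2250. HAC1 mRNA was 5.43, 17.7 and 42.1 RPKM in hac1 deletion cells with DTT, Tm and no treatment, against 5216, 4325 and 2372 RPKM in WT cells. KAR2, the ER Hsp70 and a Hac1 target, rose with DTT by 1.99 ± 0.12 in Hac1-depleted cells and by 3.71 ± 0.15 in Hac1-retained cells (± SE, as for all estimates; limma, Benjamini-Hochberg adjusted p = 5.33e-07 and 4.35e-08). In the deletion experiment KAR2 mRNA was at 0.49 with DTT in hac1 deletion cells and at 3.25 in WT cells. Its rise in Hac1-depleted cells was thus larger than that in hac1 deletion cells. Cultures were measured in bulk, so fewer cells expressing a gene and less RNA per cell cannot be told apart.

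Unstressed cells expressed the members above the typical gene. Over the 3 auxin libraries without DTT, member mRNA had a median of 361.9 RPKM, against 165.3 RPKM for all genes tested, and footprints had a median of 229.1 RPKM, against 104.2 RPKM. Cytosolic ribosomal protein genes, the structural partners of these factors, stood far higher, at medians of 8749 RPKM in mRNA and 9261 RPKM in footprints. The log2 TE of members had a median of -0.53, against -0.77 for all genes and -0.09 for ribosomal protein genes.

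Levels differed widely between members. NOP1, which encodes fibrillarin, the methyltransferase of box C/D snoRNPs, averaged 1575 ± 57.7 RPKM in mRNA (SD, n = 3) and 3699 ± 67.6 RPKM in footprints, and NSR1, the yeast nucleolin homolog, averaged 1524 ± 21.6 and 2100.0 ± 92.6 RPKM. The box C/D core gene NOP56 (1501 ± 102 RPKM in mRNA) and the large-subunit factors RLP7, a ribosomal-like protein, and NOP15, an RNA-binding protein (1364 ± 63.2 and 1239 ± 64.4 RPKM), came next. At the low end stood DBP6, a helicase of early pre-60S particles (65.9 ± 2.91 RPKM), and UTP20, a processome scaffold protein (84.0 ± 3.93 RPKM). In mRNA NOP1, NSR1 and NOP56 did not differ beyond their SDs, whereas DBP6 and UTP20 did.

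Footprints did not simply follow mRNA. NOP1 had the highest log2 TE at 1.23, followed by ERB1 (0.86), a member of the Nop7 complex, RRP5 (0.72) and NOP2 (0.63), the large-subunit m5C methyltransferase. UTP9 of UtpA had the lowest (-1.63), followed by SSF1 (-1.60), a Brix-domain assembly factor, NOG2 (-1.32), a nuclear GTPase of the pre-60S particle, and RRP14 (-1.26), which takes part in both subunits. SSF1 has a near-identical paralog, SSF2, and NOG2 overlaps the snoRNA gene SNR191 in the RefSeq annotation, so reads of both members could be split or shared, and their values are uncertain.

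DTT was followed by lower mRNA of all 53 members in both strains of the deletion experiment. The median difference from untreated was -1.06 in hac1 deletion cells and -0.80 in WT cells, while the medians of all genes were 0.16 and 0.30. Of the 53 members, 31 in hac1 deletion cells and 13 in WT cells were lower by at least 2-fold, where 4.97% and 6.83% of all genes were. With 1 library per group these differences have no replicate check and no test. Scaling by median ratios, which sets the median of all genes near 0, raised the counts to 38 in hac1 deletion cells and 36 in WT cells.

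NSR1 was the most strongly lowered member. Its mRNA stood at 376 RPKM with DTT in hac1 deletion cells, against 1712 RPKM untreated, and at 419 RPKM with DTT in WT cells, against 1693 RPKM untreated. Its footprints were 617 RPKM with DTT against 2708 RPKM untreated in hac1 deletion cells, and 763 RPKM with DTT against 2824 RPKM untreated in WT cells. The log2 differences in mRNA were -2.18 and -2.01, and the levels with DTT were close together in the 2 strains.

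Large-subunit assembly factors had the lowest median of the roles with more than 3 members. Their median was -1.30 in hac1 deletion cells and -1.05 in WT cells with DTT, and 12 and 9 of the 16 were past 2-fold. NOP13, an RNA-binding nucleolar protein, was at 294 RPKM with DTT and 805 RPKM untreated in hac1 deletion cells, and at 287 and 767 RPKM in WT cells. BRX1, a Brix-domain factor of early pre-60S particles, was at 621 RPKM with DTT and 1696 RPKM untreated in hac1 deletion cells, and at 506 and 1313 RPKM in WT cells. Both were lower by more than 2-fold with DTT in each strain. RLP7 (-1.15 in hac1 deletion cells, -1.01 in WT cells), NOP15 (-1.29, -1.12) and SSF1 (-1.58, -1.34) did the same.

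The UtpA, UtpB and box C/D groups had smaller median differences. UtpA, which binds the start of the precursor rRNA, had medians of -0.87 in hac1 deletion cells and -0.55 in WT cells, with UTP5 at -1.06 and -0.55 and UTP9 at -0.83 and -0.46. UtpB, its partner in the processome core, had medians of -0.89 and -0.71, with UTP21 at -0.79 and -0.69 and UTP6 at -1.02 and -0.73. The box C/D genes had medians of -0.95 and -0.76, with NOP1 at -1.08 and -0.78 and NOP56 at -0.96 and -0.77. In each of these 3 groups no member passed 2-fold in WT cells, where 6.83% of all genes were past 2-fold lower. In hac1 deletion cells UTP4 (-1.30), UTP5, UTP6 and NOP1 did, where 4.97% of all genes did.

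Helicases, GTPases and methyltransferases were heterogeneous. HAS1, a helicase of both subunits, was at 266 RPKM with DTT and 733 RPKM untreated in hac1 deletion cells and at 266 and 601 RPKM in WT cells, lower by more than 2-fold in both strains. DBP6 was at 76.3 and 113 RPKM in hac1 deletion cells and at 80.8 and 86.1 RPKM in WT cells, the smallest WT difference of any member. Among the GTPases, NOG2 was at -1.39 in hac1 deletion cells and -1.30 in WT cells, NOG1, an early-acting pre-60S GTPase, at -1.33 and -0.55, and NUG1, a nuclear GTPase of large-subunit export, at -0.79 and -0.35. RRP8, which methylates an adenine of the large-subunit rRNA, was at -1.41 and -1.27, and NOP2 at -1.04 and -0.79. Other members between these extremes included DBP3 (-1.09, -0.80), a large-subunit helicase, UTP7 (-0.92, -0.46), a processome protein, and RRP5 (-1.28, -0.98).

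Ribosome footprints were lower in parallel with mRNA under DTT. All 53 members had fewer footprints than untreated in both strains, with medians of -1.10 in hac1 deletion cells and -0.81 in WT cells, and 30 and 13 members past 2-fold lower, where 5.23% and 7.22% of all genes were. After median-ratio scaling the counts were 37 and 38. TE of the members was nearly flat, with medians of 0.02 in hac1 deletion cells and 0.02 in WT cells and no member past 2-fold in either direction, where 1.80% and 2.71% of all genes were. Across the 53 members the footprint and mRNA differences had a Pearson correlation of 0.92 in hac1 deletion cells and 0.93 in WT cells. Those points share their libraries, and genes are not independent replicates. Over all genes the correlations were also 0.92 and 0.93, so this is not particular to the members.

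At the ends of the range, NOP7, whose protein forms a complex with Erb1 and Ytm1, was at -1.56 in mRNA and -1.59 in footprints in hac1 deletion cells with DTT, next to NSR1 and SSF1. The smallest differences there were those of UTP22, a processome protein (-0.37 in mRNA, -0.05 in footprints), DBP6 (-0.46 in footprints), UTP15 of UtpA (-0.64 in mRNA) and UTP10, also of UtpA (-0.61 in footprints). In WT cells UTP10 had -0.33 in mRNA and -0.21 in footprints, and RRP8 had -1.60 in footprints, below its mRNA difference. TE was most positive for UTP20 in both strains (0.43 in hac1 deletion cells, 0.29 in WT cells) and most negative for NOP58 in hac1 deletion cells (-0.19) and RRP8 in WT cells (-0.34).

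With Tm the members were little lower in hac1 deletion cells and well lower in WT cells, a contrast that 1 library per group leaves without a test. In hac1 deletion cells all 53 members had mRNA below untreated, with a median of -0.20 and 0 past 2-fold lower, where 0.193% of all genes were. KAR2, a Hac1 target, stood at 0.17 in that comparison and the median of all genes at 0.04. Few genes of any kind moved with Tm in these cells. Of 5693 genes, 32 were past 2-fold higher and 11 past 2-fold lower, where 552 and 207 were in WT cells. The small difference was thus not particular to the members. In WT cells all 53 were below untreated, with a median of -0.89 beside 0.15 for all genes, and 17 were past 2-fold lower, where 3.64% of all genes were. Median-ratio scaling gave 0 members past 2-fold in hac1 deletion cells and 31 in WT cells.

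NSR1 shows the contrast between agents. With Tm its mRNA was 1138 RPKM in hac1 deletion cells, against 1712 RPKM untreated, and 407 RPKM in WT cells, against 1693 RPKM untreated. In hac1 deletion cells the Tm level lay between the DTT and the untreated level, while in WT cells it was about the same with Tm and DTT. NOP13 was 705 RPKM with Tm in hac1 deletion cells and 317 RPKM in WT cells, and BRX1 was 1662 and 661 RPKM. Each hac1 deletion value lay close to its untreated level given above. In WT cells NOG2 (-1.36) followed NSR1 (-2.06) among the most lowered, and DBP6 (-0.25), UTP22 (-0.35) and UTP9 (-0.52) were the least lowered.

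In footprints, hac1 deletion cells with Tm had a member median of -0.08, with 37 members below and 16 above untreated and 0 past 2-fold lower, where 0.170% of all genes were. All genes had a median of 0.10, and 3747 of 5293 were above untreated. After median-ratio scaling 49 members were below and 4 above. UTP20 had the most positive footprint difference there (0.38), before UTP10 (0.18) and UTP22 (0.13), and NSR1 the most negative (-0.36). In WT cells with Tm the median was -0.92, with 19 members past 2-fold lower, where 4.65% of all genes were. TE of the members had a median of 0.15 in hac1 deletion cells with Tm, with 49 of 53 above 0, beside 0.07 for all genes, and -0.04 in WT cells. No member's TE passed 2-fold in either strain, where 0.984% of all genes did in hac1 deletion cells and 1.59% in WT cells. Median-ratio scaling left the TE median in hac1 deletion cells at 0.07, with 35 members above 0.

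**Figure D1:**
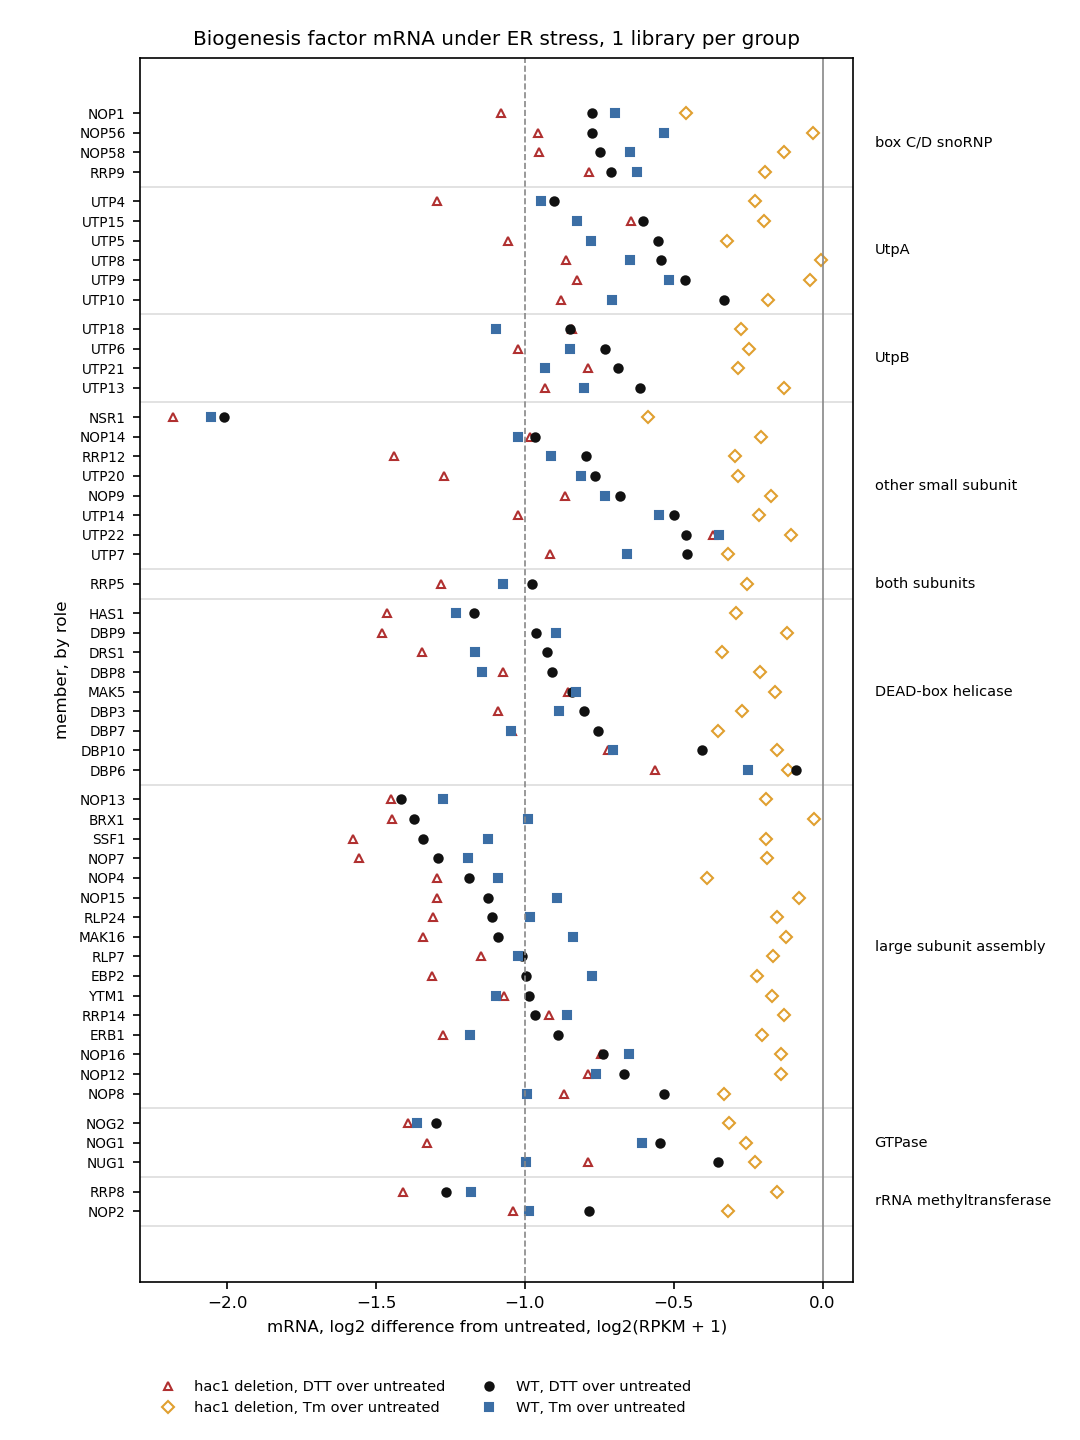
The log2 difference of each member's mRNA from untreated cells of the same strain is plotted on the x axis, log2(RPKM + 1), for 53 members grouped by role on the y axis, with 1 library per group and a dashed line at 2-fold lower. DTT in either strain and Tm in WT cells place all members below 0, with NSR1 farthest left, whereas Tm in hac1 deletion cells (diamonds) places all of them between -0.59 and -0.01.

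Of 41 further small-subunit factors, 25 in hac1 deletion cells and 5 in WT cells were past 2-fold lower in mRNA with DTT, with medians of -1.05 and -0.82, and of 37 further large-subunit factors 19 and 9 were, with medians of -1.03 and -0.84. With Tm in WT cells the medians of those 2 lists were -0.86 and -0.81. Ribosomal protein genes had another pattern across agents. Of 132 such genes, 3 in hac1 deletion cells and 81 in WT cells were past 2-fold lower with DTT (medians -0.67 and -1.05), and 0 were with Tm in WT cells (median -0.38). The members' counts in those 3 comparisons were 31, 13 and 17 of 53, and these differences between lists have no test.

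In mRNA, untreated strains differed most in 5 members that lie on 2 chromosomes. The mRNA of 49 members was higher in hac1 deletion cells than in WT cells, with a median of 0.31 beside 0.21 for all genes, and 0 members were past 2-fold in either direction, where 7.94% of all genes were. For footprints the median was 0.23 and the helicase gene DBP10 (0.56) differed more than DBP8 (-0.53), again with 0 past 2-fold, where 9.30% of all genes were, and TE had a median of -0.07 with 0 past 2-fold, where 2.29% of all genes were. After median-ratio scaling 43 members were higher in mRNA and 33 in footprints, and 1, SSF1, was past 2-fold lower in each. The lowest 3 members in mRNA were SSF1, UTP9 and DBP8, a small-subunit helicase, at -0.86, -0.72 and -0.62, and the highest 2 were UTP20 and MAK5, a large-subunit helicase, at 0.94 and 0.79. The systematic names place the 3 low members on chromosome VIII and the 2 high members on chromosome II.

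The medians of those chromosomes were displaced in the same directions. Genes on chromosome VIII had a median mRNA difference of -0.79 between the untreated strains, and genes on chromosome II one of 0.75, while the medians of the other 14 chromosomes lay between 0.17 and 0.28. With DTT the chromosome VIII and II medians were -0.91 and 0.66, and with Tm -0.85 and 0.61. The mRNA of the 3 members on chromosome VIII did not lie near that median under Tm, where the differences ran from -0.24 to 0.32 with a median of 0.08. Members as a whole were higher in hac1 deletion cells with Tm. The 48 members on the other 14 chromosomes had a median of 1.02 there, beside 0.08 for all genes on those chromosomes. The 3 members thus lay below the other members with Tm as well. SSF1 mRNA was 79.4, 209 and 239 RPKM in hac1 deletion cells with DTT, Tm and no treatment, against 171, 199 and 434 RPKM in WT cells. Its values were lower in hac1 deletion cells within the DTT pair and the untreated pair, and close together within the Tm pair. What part the displacement of whole chromosomes has in these members' strain differences was not tested. TIR and no-TIR cells with auxin alone showed no such shift, and the medians of the other 14 chromosomes ran there from -0.01 to 0.03 in mRNA.

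The treatment comparisons above were each made within 1 strain. For the direct strain comparison, the 48 members on the other 14 chromosomes had median mRNA differences, hac1 deletion over WT, of 0.31 untreated, 0.08 with DTT and 1.02 with Tm. Footprint medians were 0.24 untreated, 0.04 with DTT and 1.16 with Tm. With Tm all 48 were higher in hac1 deletion cells, with a range of 0.33 to 1.48 in mRNA, and with DTT 29 were above and 19 below 0. NOG2, on chromosome XIV, was the only 1 of the 48 with less mRNA in untreated hac1 deletion cells (-0.37).

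**Figure D2:**
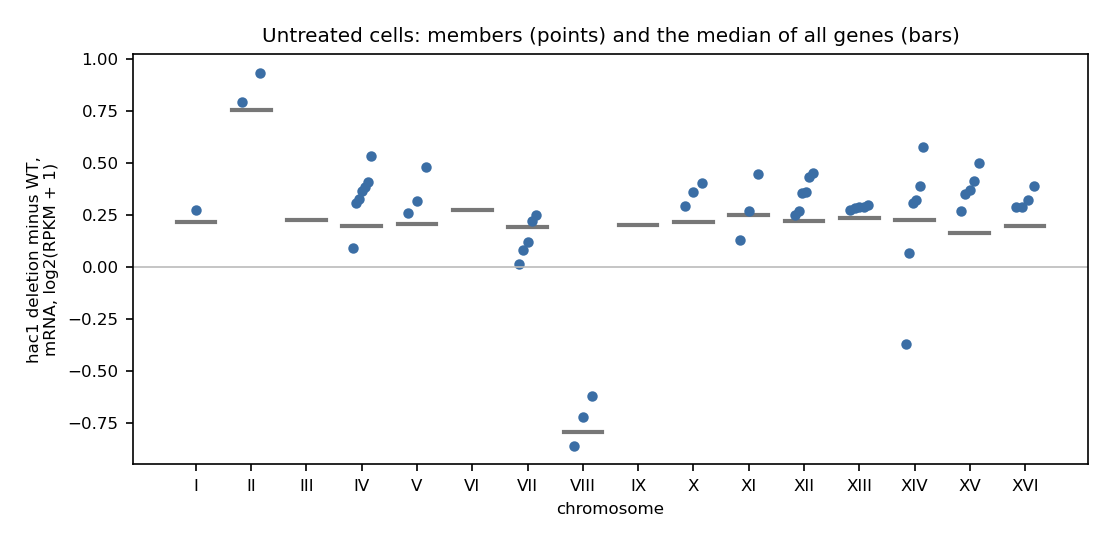
Points give the mRNA difference of each of 53 members between untreated hac1 deletion and WT cells, log2(RPKM + 1), by chromosome on the x axis, and bars give the median of all genes on that chromosome. Members on chromosomes II and VIII lie with the displaced medians of 0.75 and -0.79, and the others cluster near the remaining medians.

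The auxin experiment gives a related DTT comparison with a fit across libraries. Its unstressed libraries had auxin and IP6, Hac1 was depleted and not deleted, and the hours are labelled. Differences were tested with limma on log2(RPKM + 1) with terms for group and hour, and a gene was called at a Benjamini-Hochberg adjusted p under 0.05 over all genes tested. With Hac1 depleted, member mRNA had a median of -0.47, and 34 members fell and 1 rose, where 17.5% of all genes fell and 41.1% rose. With Hac1 retained the median was -0.37, and 13 members fell and 0 rose, where 12.0% fell and 28.6% rose. The medians of all genes were 0.26 and 0.24. With all unstressed libraries as 1 control, an alternative added after seeing the data, 34 mRNA and 31 footprint members were called with Hac1 retained. The share of all genes called with that control is not given here. After median-ratio scaling 46 members fell with Hac1 depleted and 32 with Hac1 retained, where 27.2% and 18.5% of all genes did.

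Footprints gave 39 falling and 1 rising member with Hac1 depleted, where 19.8% of all genes fell and 49.6% rose, and 6 falling and 0 rising with Hac1 retained, where 14.6% fell and 47.5% rose. Their medians were -0.50 and -0.21, while the medians of all genes were 0.29 and 0.34. After median-ratio scaling 51 and 33 members fell, where 33.3% and 26.7% of all genes did. Counts with Hac1 retained rest on 1 unstressed library of that strain, and 4 members fell in mRNA without the 2 h no-TIR auxin and DTT library. In footprints 1 member fell without the 1 h library of that group, 2 without the 2 h library, and 18 without either TIR auxin-alone library. With Hac1 depleted, leaving out the 2 h TIR auxin and DTT library gave 21 members falling in mRNA and 20 in footprints, and leaving out the 2 h TIR auxin-alone library gave 18 in mRNA. Without the hour term 18 members were called in mRNA and 17 in footprints with Hac1 depleted. Shares of all genes called are not given for the fits without a library or without the hour term.

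NSR1 had the most negative estimate in both arms and both molecules. Its mRNA was 499.7 and 882 RPKM in Hac1-depleted cells with DTT at 2 h and 1 h, 513 and 584 in TIR vehicle cells with DTT, 619.7 and 689.7 in Hac1-retained cells with DTT and 427 and 603 in no-TIR vehicle cells with DTT. Without DTT it was 1522 and 1504 RPKM in TIR cells and 1547 RPKM in no-TIR cells. Every library with DTT lay below every library without it. The estimates were -1.19 ± 0.19 with Hac1 depleted (limma adjusted p = 0.000278) and -1.08 ± 0.24 with Hac1 retained (adjusted p = 0.00417).

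NSR1 footprints were 616 and 1008 RPKM in Hac1-depleted cells with DTT at 2 h and 1 h and 682 and 914 RPKM in Hac1-retained cells, against 2131 and 2173 RPKM in unstressed TIR cells and 1996 RPKM in unstressed no-TIR cells. These groups did not overlap either. The footprint estimates were -1.45 ± 0.17 (limma adjusted p = 0.00015) and -1.10 ± 0.21 (adjusted p = 0.00268).

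Among box C/D genes all 4 fell in footprints with Hac1 depleted and 2 with Hac1 retained, where 19.8% and 14.6% of all genes fell. NOP58, a core protein paired with Nop56, had 619 and 823 footprint RPKM in Hac1-depleted cells at 2 h and 1 h and 666 and 770.1 RPKM in Hac1-retained cells, against 1343 and 1308 RPKM in unstressed TIR cells and 1214 RPKM in unstressed no-TIR cells. Its DTT values were all below the unstressed ones, with estimates of -0.89 ± 0.13 and -0.63 ± 0.16 (limma adjusted p = 0.000452 and 0.0108). The mRNA of NOP58 was not called, at -0.35 ± 0.16 and -0.44 ± 0.20 (adjusted p = 0.0751 and 0.0959). NOP56 fell in both molecules, by 0.50 in mRNA and 0.79 in footprints with Hac1 depleted and by 0.66 and 0.48 with Hac1 retained. NOP1 footprints fell with Hac1 depleted (-0.74 ± 0.15, adjusted p = 0.00255) while its mRNA was at -0.37 ± 0.17 (adjusted p = 0.0755).

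With Hac1 depleted, where 17.5% of all genes fell in mRNA and 19.8% in footprints, 3 of 6 UtpA genes fell in mRNA and 5 in footprints, and 1 of 4 UtpB genes fell in each, UTP6 (mRNA -0.49 ± 0.16, adjusted p = 0.0223). With Hac1 retained 0 genes of either complex were called in mRNA or footprints, where 2 of the 10 had an unadjusted p under 0.05 in mRNA and 0 in footprints. UTP9 was at 322 and 396 mRNA RPKM in Hac1-depleted cells at 2 h and 1 h, against 449 and 488 RPKM in unstressed TIR cells, and its estimate was -0.39 ± 0.15 (adjusted p = 0.0403). UTP5 fell in mRNA (-0.41 ± 0.13, adjusted p = 0.0184) and narrowly in footprints (-0.36 ± 0.14, adjusted p = 0.0456). UTP21 did not pass in either (-0.32 and -0.13).

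Of the other 8 small-subunit factors, 5 fell in mRNA and 6 in footprints with Hac1 depleted (17.5% and 19.8% of all genes). With Hac1 retained 1 and 2 fell (12.0% and 14.6% of all genes). UTP7 footprints were 124 and 141 RPKM in Hac1-depleted cells at 2 h and 1 h and 128 and 149 RPKM in Hac1-retained cells, against 175 and 189 RPKM in unstressed TIR cells and 189 RPKM in unstressed no-TIR cells. All stressed values lay below the unstressed ones and were close to each other, with estimates of -0.46 ± 0.08 and -0.36 ± 0.10 (limma adjusted p = 0.000921 and 0.0117). RRP5 fell with Hac1 depleted, by 0.58 in mRNA and 0.80 in footprints (adjusted p = 0.0127 and 0.00325), and had estimates of -0.53 and -0.48 with Hac1 retained (adjusted p = 0.0716 and 0.0815).

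Large-subunit assembly factors had the highest share of calls among the larger roles in mRNA. With Hac1 depleted 13 of 16 fell in mRNA and 13 in footprints (17.5% and 19.8% of all genes). With Hac1 retained 9 fell in mRNA (12.0% of all genes) and 1 in footprints, below the 14.6% of all genes. BRX1 mRNA was 463 and 571 RPKM in Hac1-depleted cells at 2 h and 1 h and 458 and 713 RPKM in Hac1-retained cells, against 1023 and 1022 RPKM in unstressed TIR cells and 1027 RPKM in unstressed no-TIR cells. Its unstressed libraries were nearly identical and every DTT library was lower, with estimates of -0.99 ± 0.16 and -0.67 ± 0.20 (limma adjusted p = 0.000324 and 0.021).

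NOP13 mRNA was 265 and 305 RPKM in Hac1-depleted cells at 2 h and 1 h and 257 and 418 RPKM in Hac1-retained cells, against 647 and 613 RPKM in unstressed TIR cells and 609 RPKM in unstressed no-TIR cells. The groups did not overlap, and the estimates were -1.15 ± 0.19 and -0.69 ± 0.24 (limma adjusted p = 0.000339 and 0.0357). RLP7 fell by 0.83 and 0.54 in mRNA, NOP15 by 0.80 and 0.77, and RLP24, a placeholder for a ribosomal protein, by 0.62 and 0.70, with Hac1 depleted and retained in that order. SSF1 fell with Hac1 depleted (-1.08 ± 0.18, adjusted p = 0.000404) and was at -0.56 ± 0.23 with Hac1 retained (adjusted p = 0.0668).

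Of the 9 helicases, 6 fell in mRNA and 5 in footprints with Hac1 depleted (17.5% and 19.8% of all genes). With Hac1 retained 1 fell in each (12.0% and 14.6% of all genes), which is no more than the share of all genes. HAS1 fell by 0.67 in mRNA and 0.77 in footprints with Hac1 depleted (limma adjusted p = 0.00258 and 0.00224), and DBP3 by 0.62 in mRNA (adjusted p = 0.00332) with footprints at -0.40 (adjusted p = 0.0527). DBP6 footprints were 93.0 and 109 RPKM in Hac1-depleted cells at 2 h and 1 h and 76.8 and 111 RPKM in Hac1-retained cells, against 92.1 and 93.3 RPKM in unstressed TIR cells and 88.6 RPKM in unstressed no-TIR cells. The groups overlapped, and neither estimate was called (0.12 ± 0.14 and 0.23 ± 0.17). Other members with estimates near or above 0 were the helicase genes DBP10 (-0.04 in mRNA with Hac1 depleted) and DBP7 (0.24 in footprints with Hac1 retained), UTP13 of UtpB (-0.08 in footprints with Hac1 depleted) and UTP15 (-0.01 in mRNA with Hac1 retained), none of them called.

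The 3 GTPase genes differed in direction. NOG2 mRNA was 409 and 455 RPKM in Hac1-depleted cells at 2 h and 1 h, against 1041 and 876 RPKM in unstressed TIR cells, and fell by 1.14 (limma adjusted p = 8.05e-05), while with Hac1 retained it was at -0.44 ± 0.19 (adjusted p = 0.0826). NOG1 footprints were 184 and 263 RPKM in Hac1-depleted cells and 268 and 336 RPKM in Hac1-retained cells at 2 h and 1 h, against 401 and 399.9 RPKM in unstressed TIR cells and 368 RPKM in unstressed no-TIR cells. They fell with Hac1 depleted (-0.86 ± 0.12, adjusted p = 0.000398) and were not called with Hac1 retained (-0.14 ± 0.15, adjusted p = 0.469).

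NUG1 was the exception in direction. Its mRNA was 792 and 694 RPKM in Hac1-depleted cells at 2 h and 1 h and 712 and 716 RPKM in Hac1-retained cells, against 575 and 589.6 RPKM in unstressed TIR cells and 604 RPKM in unstressed no-TIR cells. Each DTT library was above each unstressed one. NUG1 rose with Hac1 depleted by 0.35 in mRNA and 0.30 in footprints (limma adjusted p = 0.0412 and 0.0188) and was at 0.20 and 0.20 with Hac1 retained (adjusted p = 0.357 and 0.166). Under median-ratio scaling the depleted estimates were 0.09 in mRNA and -0.01 in footprints and neither was called, so its rise is a rise in RPKM and not against the median gene. Among groups with 2 libraries, the mRNA call was lost without the hour term and on leaving out any 1 library except the 2 h no-TIR auxin and DTT library, and the footprint call on leaving out the 1 h TIR auxin-alone or the 2 h TIR auxin and DTT library. In the deletion experiment NUG1 was lower with DTT in both strains. The methyltransferase RRP8 fell in mRNA by 0.84 with Hac1 depleted and 0.66 with Hac1 retained (adjusted p = 0.000803 and 0.0202), and NOP2 fell in footprints with Hac1 depleted (-0.48 ± 0.13, adjusted p = 0.0126) with mRNA at -0.11.

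**Figure D3:**
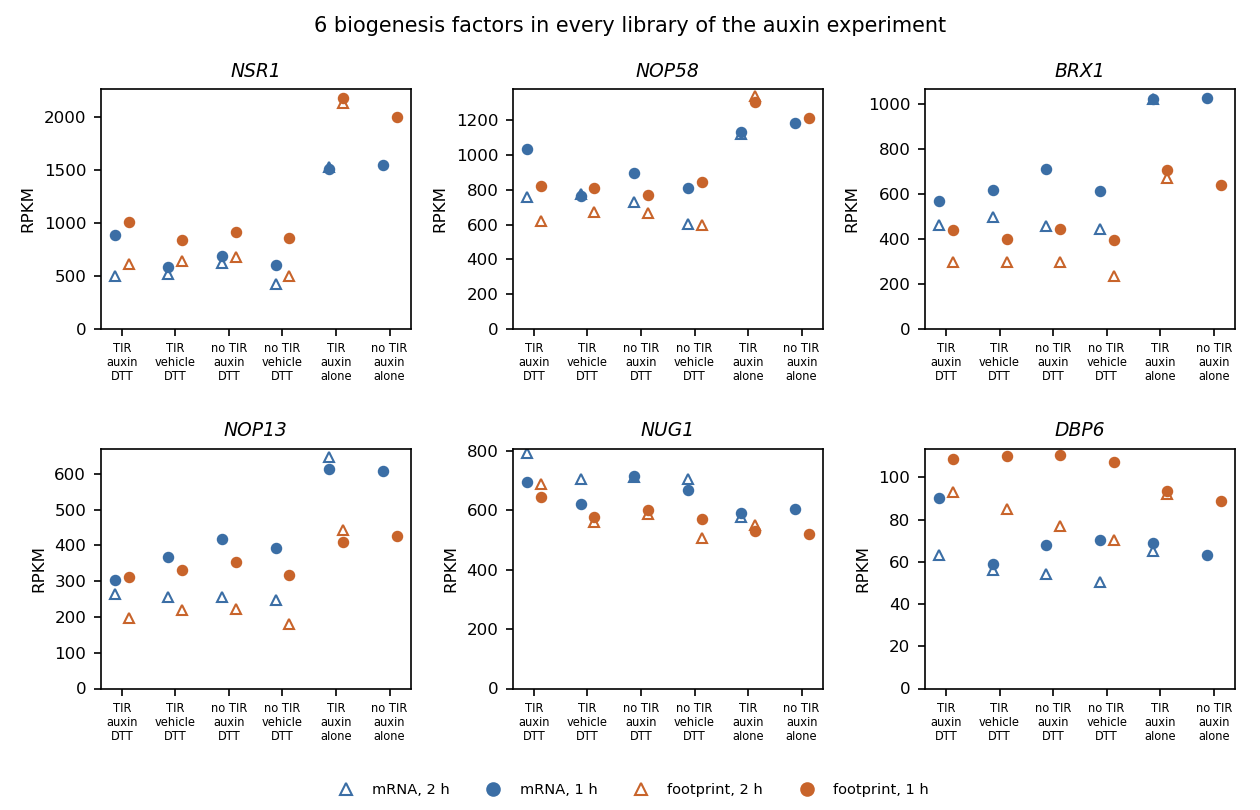
RPKM of 6 members in every library of the auxin experiment is shown on the y axis by group on the x axis, with mRNA in blue, footprints in orange, triangles for 2 h and circles for 1 h. NSR1, NOP58, BRX1 and NOP13 lie lower in all 8 DTT libraries than in the 3 without DTT, NUG1 mRNA lies higher, and DBP6 overlaps.

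**Figure D4:**
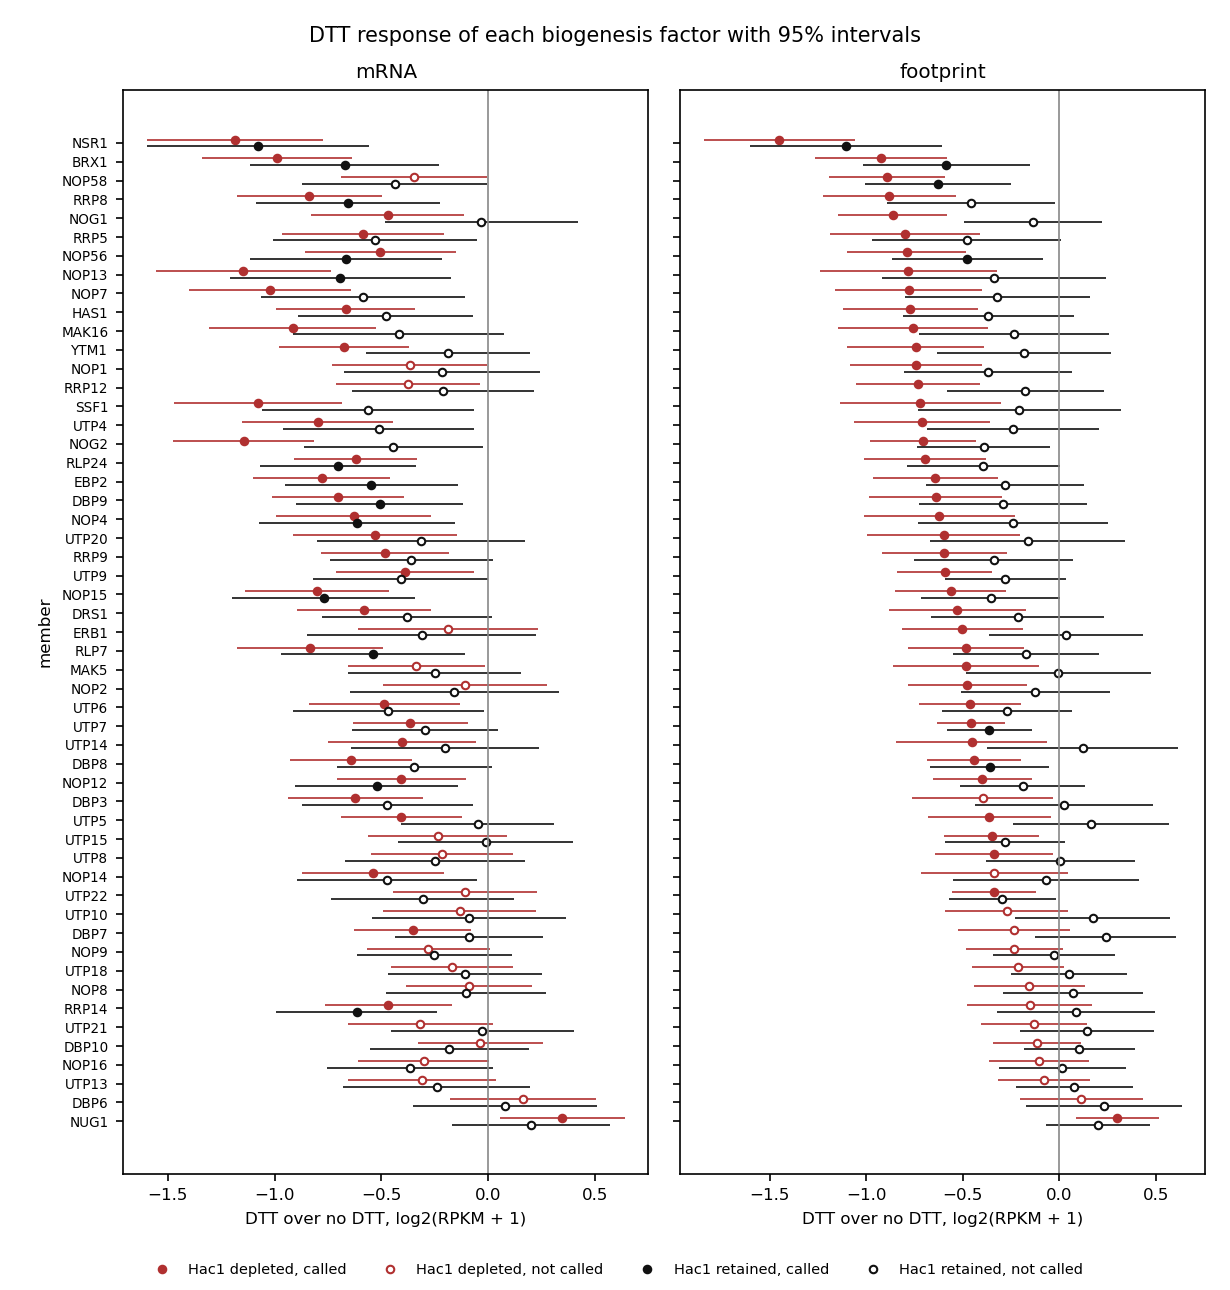
Points are limma estimates of the DTT difference with 95% intervals on the x axis, log2(RPKM + 1), for 53 members on the y axis, with Hac1 depleted in red and retained in black and filled points for calls. NSR1 has the most negative estimate in both panels and NUG1 is the only filled point above 0.

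Taking all 8 DTT libraries against all 3 libraries without DTT, 37 members had every DTT value below every unstressed value in mRNA, where 16.6% of all genes did, and 34 in footprints, where 18.6% did. NUG1 was the 1 member with every DTT value above, in mRNA, where 40.0% of all genes had that order. In TE no member lay wholly below, where 5.14% of all genes did. Wholly above lay 7 members, DBP3, EBP2, NOP13, NOP14, UTP13, UTP21 and UTP4, where 11.5% of all genes did. The count of 7 of 53 is close to that share.

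TE changes with DTT were small. With Hac1 depleted the TE median was -0.04 and 2 members were called, NOG2 upwards (0.44 ± 0.14, limma adjusted p = 0.0448) and NOP58 downwards (-0.54 ± 0.14, adjusted p = 0.017), where 18.9% of all genes were called in either direction. Under median-ratio scaling NOG2 was no longer called (0.39, adjusted p = 0.0624), 3 members were called lower and NOP58 kept its call. Both calls were lost without the filter on low values. The NOG2 call was also lost with all unstressed libraries as 1 control and on leaving out any 1 library of the groups with 2, except either no-TIR auxin and DTT library. The NOP58 call was lost on leaving out either TIR auxin-alone library or the 1 h TIR auxin and DTT library. With Hac1 retained the median was 0.20 and 1 member was called, RRP14 (0.70 ± 0.18, adjusted p = 0.0473), where 3.32% of all genes were. RRP14 log2 TE was -0.94 and -0.77 in Hac1-retained cells with DTT at 2 h and 1 h, against -1.48 in no-TIR cells with auxin alone. TIR cells with auxin alone had -1.12 and -1.18, above the single no-TIR library. The RRP14 call was lost without the filter on low values, under median-ratio scaling, without the hour term, without the trend, with all unstressed libraries as 1 control, and on leaving out any 1 of the 8 DTT libraries.

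Whether Hac1 depletion changed the members under DTT was examined directly, Hac1-depleted over Hac1-retained cells with DTT. KAR2 still rose with DTT in Hac1-depleted cells, as given above. In limma 0 members were called in mRNA, footprints or TE, where 6.08%, 9.61% and 0.244% of all genes were, and 0, 1 and 0 members had an unadjusted p under 0.05. The medians were -0.01, -0.07 and -0.06. All 53 intervals lay within 2-fold in each measure, and the 95% bounds ran from -0.74 (MAK16) to 0.66 (ERB1) in mRNA and from -0.73 (NOG1) to 0.44 (DBP6) in footprints. The most negative estimates were those of MAK16 in mRNA (-0.35), a large-subunit factor, and NOG1 in footprints, and the most positive those of DBP6 in mRNA (0.31) and NUG1 in footprints (0.16). NOG1 footprints had the smallest adjusted p (-0.45 ± 0.12, adjusted p = 0.059), and NOG1 was called after median-ratio scaling. Leaving out either TIR auxin-alone library gave 2 called footprint members. The share of all genes called in those reduced fits is not given here.

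The auxin controls were also without calls among members. Auxin over vehicle in TIR cells with DTT gave 0 called members in mRNA, footprints and TE by limma, where 5.99%, 6.61% and 0.263% of all genes were called, and 3, 1 and 4 members had an unadjusted p under 0.05. Estimates ran from -0.22 (NOG2) to 0.41 (ERB1) in mRNA and from -0.22 (NOG1) to 0.23 (DBP8) in footprints. The TIR medians were 0.17 in mRNA, with 40 of 53 above 0, 0.02 in footprints, with 30 above 0, and -0.13 in TE, with 42 below 0. In no-TIR cells with DTT, auxin over vehicle also gave 0, where 0%, 0% and 0.0188% of all genes were called, with 0, 1 and 0 members at an unadjusted p under 0.05. The no-TIR estimates were mostly positive, with 52 of 53 above 0 in mRNA and 51 in footprints and medians of 0.16 and 0.17, while the medians of all genes were -0.01 and 0.02. The most positive were NSR1 (0.36) in mRNA and SSF1 (0.35) in footprints.

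The DTT response itself was then compared between arms, depleted minus retained. By limma 0 members were called in mRNA, footprints or TE, where 1.06%, 2.49% and 0.225% of all genes were, and 1, 5 and 1 members had an unadjusted p under 0.05. The medians were -0.11, -0.32 and -0.20, and 52 of 53 footprint estimates were below 0. The arms rest on unlike hours, since the retained arm has an unstressed library at 1 h only. With 1 hour term for all groups, its estimate stays close to the 1 h difference, while the depleted estimate averages both hours. At 1 h alone the mRNA and footprint medians were -0.30 and -0.26 with Hac1 depleted, and -0.36 and -0.16 with Hac1 retained. What part the hours have in the medians was not tested. NOG1 footprints (-0.73 ± 0.20, adjusted p = 0.113) and NOG2 mRNA (-0.70 ± 0.24, adjusted p = 0.265) had the smallest adjusted p, and ERB1 had the most negative TE estimate (-0.66). This result turned on 1 library. Without the 1 h TIR auxin-alone library 35 footprint members and 1 mRNA member were called, all with the more negative response in the depleted arm. The share of all genes called in that reduced fit is not given here. The larger count of calls with Hac1 depleted than with Hac1 retained is therefore not shown to be a difference between arms.

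Within a single hour the DTT differences could be given as values without a test. At 2 h, Hac1-depleted cells over TIR auxin alone had member medians of -0.70 in mRNA and -0.74 in footprints. The medians of all genes were 0.29 and 0.26 there. At 1 h the same pair had medians of -0.30 and -0.26, beside 0.23 and 0.34 for all genes. Hac1-retained cells over no-TIR auxin alone had -0.36 and -0.16 at 1 h, beside 0.24 and 0.35 for all genes. No 2 h library of no-TIR cells with auxin alone was analysed here, so the retained arm has no 2 h pair.

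Nearly all members had fewer footprints after the longer time in DTT. Comparing 2 h with 1 h over the 4 DTT groups, 26 members fell in mRNA, where 5.65% of all genes fell, and 51 fell in footprints, where 23.8% did, and 0 rose in either. The medians were -0.34 and -0.40, against 0.01 and -0.02 for all genes. After median-ratio scaling 33 and 51 fell, where 6.48% and 22.4% of all genes did. The footprint count was 48 to 51 on leaving out any 1 library, and the mRNA count dropped to 7 and 6 without the 1 h and the 2 h no-TIR vehicle and DTT library. For these reduced fits the share of all genes called is not given.

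NOP13 had the most negative footprint estimate over time. Its footprints were 197 RPKM at 2 h and 313 RPKM at 1 h in Hac1-depleted cells, 218 and 330.5 in TIR vehicle cells, 222 and 354 in Hac1-retained cells and 181 and 318 in no-TIR vehicle cells, all with DTT. In TIR cells with auxin alone they were 444 RPKM at 2 h and 411 RPKM at 1 h. The 2 h value was the lower in each of the 4 DTT groups and the higher in the unstressed group. The estimate over the DTT groups was -0.69 ± 0.05 (limma adjusted p = 0.000295).

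Every role took part in the fall with time. NSR1 (-0.58 ± 0.08, limma adjusted p = 0.00155), NOP1 (-0.56 ± 0.06, adjusted p = 0.000683), RRP5 (-0.57 ± 0.05, adjusted p = 0.000485) and HAS1 (-0.50 ± 0.05, adjusted p = 0.000465) all fell in footprints. UTP5 of UtpA (-0.48), UTP21 of UtpB (-0.33), NOG1 (-0.39) and RRP8 (-0.50) fell as well. DBP6, which DTT as such left uncalled, fell by 0.43 between the hours (adjusted p = 0.00329). The 2 members not called were NUG1 (-0.04 ± 0.06, adjusted p = 0.581) and DBP8 (-0.07 ± 0.07, adjusted p = 0.449). In mRNA the most negative estimates were those of UTP14, an activator of the processome helicase Dhr1 (-0.56 ± 0.09, adjusted p = 0.00308), and NOP1 (-0.53 ± 0.10, adjusted p = 0.00786). TE had a median of -0.08 and 0 members called by limma, where 0.432% of all genes were, with 0 at an unadjusted p under 0.05.

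By group, the member medians of 2 h minus 1 h in footprints were -0.43 in Hac1-depleted, -0.37 in TIR vehicle, -0.41 in Hac1-retained and -0.47 in no-TIR vehicle cells with DTT, and 0.04 in TIR cells with auxin alone. In mRNA they were -0.40, -0.19, -0.33 and -0.46 with DTT and -0.03 with auxin alone. The change over time in the DTT groups minus that in TIR cells with auxin alone was tested after the data had been seen. In footprints 14 members were called lower by limma, where 1.95% of all genes were, and all 53 estimates were below 0 with a median of -0.48. NOP13 (-0.80 ± 0.12, adjusted p = 0.026), SSF1 (-0.72 ± 0.12, adjusted p = 0.0329), RRP5, the large-subunit factors NOP4 and MAK16, the small-subunit factors UTP14, NOP14, UTP4 and UTP5, and the helicase genes MAK5, DBP3, DRS1, HAS1 and DBP9 made up the 14. Median-ratio scaling left 6 calls and 52 estimates below 0, and in mRNA and TE 0 members were called, with 7 and 0 at an unadjusted p under 0.05. That comparison rests on 1 pair of unstressed libraries.

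**Figure D5:**
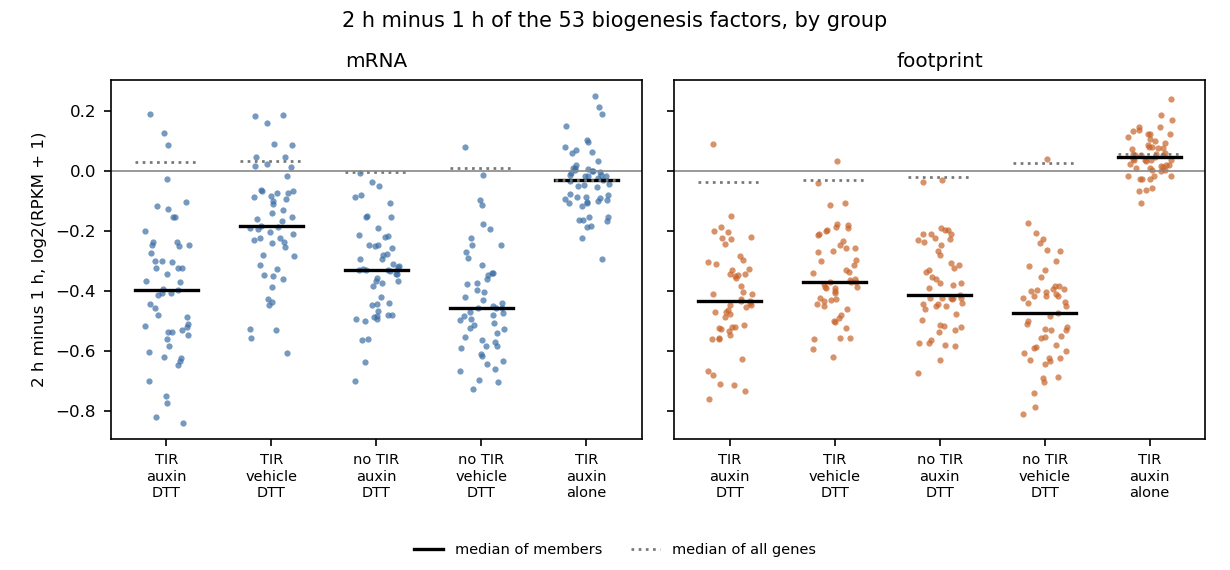
Each point is 1 of 53 members and the y axis gives its value at 2 h minus that at 1 h, log2(RPKM + 1), by group on the x axis, with black bars for the member median and dotted bars for the median of all genes. Footprint medians lie between -0.47 and -0.37 in the 4 DTT groups and at 0.04 with auxin alone.

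Of 41 further small-subunit factors 39 fell in footprints between the hours (median -0.40), of 37 further large-subunit factors 35 did (median -0.39), and of 20 late and cytoplasmic factors 15 fell and 1, the kinase gene HRR25, rose. All 5 genes of the box H/ACA list fell (median -0.34) and so did 10 of 15 RNA polymerase I genes. Ribosomal protein genes were mixed, with 43 of 130 falling and 6 rising and a median of -0.16. Of 132 ribosomal protein genes, 124 fell under DTT in mRNA with Hac1 depleted (median -0.90) and 127 with Hac1 retained (median -0.82).

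Among the further small-subunit factors 30 of 41 fell in mRNA with Hac1 depleted and 4 with Hac1 retained, and among the large-subunit factors 28 and 4 of 37. The members' counts were 34 and 13 of 53, and 17.5% and 12.0% of all genes fell. UTP23, a processome protein, had the largest fall with Hac1 depleted in the first list (-1.39, limma adjusted p = 4.1e-05) and NIP7, a pre-60S factor, in the second (-1.37, adjusted p = 6.5e-05). With Hac1 retained these places were taken by SLX9, a pre-40S factor (-0.86, adjusted p = 0.0077), and CIC1, a pre-60S factor (-0.67, adjusted p = 0.0158).

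Genes of 9 known regulators of this program were read alongside. STB3, a repressor that binds the ribosomal RNA processing element, rose in mRNA by 1.27 ± 0.15 with Hac1 depleted and 1.20 ± 0.19 with Hac1 retained (limma adjusted p = 4.11e-05 and 0.000608). DOT6, a repressor that binds the PAC element, rose by 0.94 ± 0.16 and 0.76 ± 0.20 (adjusted p = 0.000496 and 0.0121), whereas its paralog TOD6 was not called (0.03 and 0.04). SFP1, an activator, rose with Hac1 depleted (0.84, adjusted p = 0.00162) and was at 0.34 with Hac1 retained (adjusted p = 0.234). RAP1, a ribosomal protein gene activator, fell with Hac1 depleted (-0.38 ± 0.14, adjusted p = 0.0406). FHL1 and IFH1, which act with it, and the kinase genes SCH9 and TOR1 were not called in mRNA in either arm, at -0.19 and -0.42, 0.11 and 0.03, 0.13 and 0.29, and 0.40 and 0.25 with Hac1 depleted and retained. STB3 footprints rose by 1.14 with Hac1 depleted and 1.54 with Hac1 retained. With DTT they were called lower in Hac1-depleted than in Hac1-retained cells (-0.41 ± 0.10, limma adjusted p = 0.0364). In the deletion experiment STB3 mRNA was at 0.95 in hac1 deletion cells and 1.77 in WT cells with DTT, and at 0.10 and 1.63 with Tm. There TOD6 was at -1.35 and -0.91 with DTT and -0.34 and -1.25 with Tm. DOT6, called higher in both arms of the auxin experiment, was at 0.22 and 0.07 with DTT and at -0.0023 and -0.51 with Tm. In these 4 comparisons the other 6 regulators lay between -0.81 (FHL1, WT cells with DTT) and 0.47 (SFP1, hac1 deletion cells with DTT).

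The 2 experiments have no library in common. Across the 53 members, the mRNA difference with Hac1 depleted had a Pearson correlation of 0.80 with that in hac1 deletion cells with DTT and 0.87 with that in WT cells with DTT, and 0.10 with that in hac1 deletion cells with Tm. For footprints these were 0.79, 0.72 and 0.31. Over all genes the mRNA correlations were 0.78, 0.79 and 0.23. These are descriptions across genes, which share length and base composition in all libraries.

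Position in the genome ties few members together. In the RefSeq annotation 5 members lie next to another listed biogenesis gene, UTP9 beside RIX1, UTP13 beside RSA3, DBP8 beside NMD3, SSF1 beside RRP3 and NOG2 beside ESF2, and only NOG2 overlaps an annotated gene.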

How the data were processed

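Both tables hold RPKM values per gene made by the authors, for 6679 genes each. The file headers name the unit only for the deletion experiment. The values of the auxin experiment, whose header gives none, were read as RPKM from their range and steps. In every library the estimated reads in genes exceeded the estimated per-million denominator, in untreated WT mRNA 16.303 M against 4.758 M. The denominator was therefore not the reads in genes, and what it was is not known here. Bowtie2, CASAVA and bcl2fastq 2.17 are named in the submitters' processing notes. Settings, genome build and counting method were not given in the sources used here. One label describes all 12 deletion libraries as footprints, and the titles and column names were followed instead.

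The auxin libraries (11 per molecule) were fitted with limma 3.58.1 in R 4.3.3 with a mean-variance trend on log2(RPKM + 1), for genes averaging 5 RPKM or more, leaving 4 residual degrees of freedom (3 for the comparisons between hours). The hour, which is the replicate number in the labels, was an additive term. P-values were Benjamini-Hochberg adjusted over all genes tested. The deletion libraries have no replicates and were compared by differences alone, over genes averaging 5 RPKM or more. Log2 differences understate changes of low genes because of the pseudocount of 1. Reads per library were estimated from the steps of low values. Among genes with few estimated reads (280 to 830 genes per library), 67.3% to 89.5% of values came out whole within 0.02. The step had been chosen to make low values whole. For the share that did not, no count test was run. The fit was tested on simulated data. Tables and figures used Python 3.11.15, pandas 2.3.3 and matplotlib 3.10.9.

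The members and gene lists were chosen with earlier results of these data known. Genes were named by rule as the 2 most abundant of each role, all members of roles with 3 or fewer, the 3 highest and 3 lowest differences of each comparison, of which the text gives the outermost, and all listed regulators. RefSeq locus tags matched 5994 genes.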

Additional observations from a re-analysis of the deposited data

Results flagged for a closer look

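The footprint change from 1 h to 2 h differed between DTT and no DTT for 14 members, all lower, by limma at a Benjamini-Hochberg adjusted p under 0.05, where 1.95% of all genes were called lower. The comparison was chosen after seeing the data, and median-ratio scaling left 6. It is listed because the test of the difference itself passed, and it rests on 1 pair of unstressed libraries.

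For 16 members, footprints were above untreated with Tm in hac1 deletion cells and below untreated with Tm in WT cells. Of all genes, 3747 of 5293 had footprints above untreated in hac1 deletion cells with Tm, so a value above untreated was the more common one there. The opposite directions put them here, and the difference was not tested, since each group has 1 library. Under median-ratio scaling 4 members were above untreated in hac1 deletion cells with Tm.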

How the results depend on the processing

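Of 399 counts of members compared across settings, 349 stayed within 1.5 times the reported count. With median-ratio scaling, members called with Hac1 retained were 32 in mRNA, 33 in footprints and 0 in TE, 1 footprint member was called for depleted over retained, 6 footprint members for the difference of hour changes in place of 14, and the NUG1 footprint estimate with Hac1 depleted turned to -0.011. The same scaling put 36 (mRNA) and 38 (footprints) members past 2-fold in WT cells with DTT, 31 and 33 with Tm, and 1 and 1 between untreated strains. Medians moved to -0.62, -0.55 and 0.11 (mRNA, footprints, TE) with Hac1 retained, -0.73 and -0.81 with Hac1 depleted, -1.10 and -1.17 in WT cells with DTT, and 0.07 for TE in hac1 deletion cells with Tm. Without the replicate block of hour, 18 mRNA and 17 footprint members were called with Hac1 depleted and 0 in TE with Hac1 retained. Without the filter 0 were called in TE in either arm and 17 in mRNA between hours. Without the trend 0 were called in TE with Hac1 retained. With all unstressed libraries as 1 control, chosen after seeing the data, 34 mRNA, 31 footprint and 0 TE members were called with Hac1 retained and 5 in TE with Hac1 depleted. Leaving out 1 library at a time gave 4 to 14 mRNA, 1 to 18 footprint and 0 to 1 TE calls with Hac1 retained, 18 to 38, 20 to 50 and 0 to 3 with Hac1 depleted, 0 to 2 footprint calls for depleted over retained, 0 to 1 mRNA and 0 to 35 footprint calls for the difference of responses, and 6 to 26 mRNA calls between hours. Apart from the scaling, shares of all genes called are not given for these settings, and the cause was not tested. Promoter motifs were not run, because no promoter sequences were used here. The retained arm has 1 unstressed library, and the deletion groups have 1 library each, which limits both.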
